A study of Mus musculus with 22 samples.

Results

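Antibody heavy chains outside the Ighv11-2 and Ighv12-3 rearrangements were searched for CDR3s that different mice had made in common. A CDR3 was called convergent when its amino acids, together with its V segment, occurred in at least 2 of the 11 mice. There were 20 such CDR3s among the 5870 distinct CDR3s outside Ighv11-2 and Ighv12-3, or 0.341%, and they were carried by 219 of 13412 sequences. The whole series holds 17178 sequences. For comparison, 18 of 57 CDR3s with Ighv11-2, or 31.6%, and 51 of 420 with Ighv12-3, or 12.1%, met the same definition. The members were chosen by the measured CDR3 amino acids, the V segment and the number of mice, so the number of mice, the V segment, the CDR3 and its length are given as a description without a test.

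The sequences came from kidney B cells of wild-type C57BL/6 female mice aged 8 to 10 weeks, whose bladders received 2 inoculations of uropathogenic Escherichia coli (UPEC, 5 mice) or of PBS (6 mice) and which were examined at day 56. No group carried a transgene or a deletion. An anti-CD45 antibody given into the blood before death labels leukocytes inside vessels, and B cells without that label (extravascular) and with it (intravascular) were sorted and sequenced separately, so that each mouse gave a library of each kind. The only readout was rearranged Igh sequence, so the identity of the sorted cells could not be checked against markers of other cell types. The 22 libraries held between 244 and 2134 sequences (median 648.5) and between 936 and 18956 reads, and every retained sequence had at least 2 reads. PBS extravascular libraries were the deepest, with a median of 1286 sequences against 477.5 in the PBS intravascular, 743 in the UPEC extravascular and 377 in the UPEC intravascular libraries. A deeper library has more chances to contain a CDR3 of another mouse, and the part of depth in the counts of shared CDR3s was not tested.

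The CDR3 is the part of the heavy chain where the V, D and J segments were joined, and it usually contributes most to antigen contact. Its ends come from the V and J segments, and its middle from the D segment and from nucleotides added or removed at both joints, among them the non-templated nucleotides added by terminal deoxynucleotidyl transferase (TdT). TdT is little active before birth, when many B-1 cells arise, and B-1 cells with Ighv11-2 or Ighv12-3 and the same CDR3 recur in mouse after mouse and bind phosphatidylcholine. CDR3s run here from the codon of the conserved cysteine to that of the conserved tryptophan. Each is named by its V segment and its length in amino acids (aa), with the J or D segment added where 2 would have the same name.

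The convergent CDR3 found in most mice was Ighv5-6 (15 aa), joined to Ighd1-1 and Ighj2, which occurred in 4 mice, 2 PBS and 2 UPEC. Every copy had the same nucleotides and no nucleotide between V, D and J. The nucleotides of this CDR3 and of 3 others with a single nucleotide form are printed here, because each was the same in every mouse that carried it. Capitals mark the stretch that the deposited annotation assigns to the D segment, and all sequences run 5′ to 3′.
Ighv5-6 (15 aa): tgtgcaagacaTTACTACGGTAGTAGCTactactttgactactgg
Ighv5-6 (10 aa): tgtgcaagacTAACTGggtttgcttactgg
Ighv5-9-1 (11 aa): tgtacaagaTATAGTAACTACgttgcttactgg
Ighv3-1/Ighj2 (12 aa): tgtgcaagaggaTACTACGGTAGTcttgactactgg

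Other CDR3s reached the same amino acids through different nucleotides. The next sequences are shown because their forms come from different mice and differ in few bases, which the capitals mark. In each pair or trio the mouse is given after the name.
Ighv1-53 (12 aa), PBS mouse 2, 108 sequences: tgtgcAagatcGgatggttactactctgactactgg
Ighv1-53 (12 aa), PBS mouse 2, 1 sequence: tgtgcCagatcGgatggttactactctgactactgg
Ighv1-53 (12 aa), PBS mouse 4: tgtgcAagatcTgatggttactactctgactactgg
Ighv3-1 (15 aa), UPEC mouse 1, 9 sequences: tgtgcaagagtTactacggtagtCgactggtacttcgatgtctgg
Ighv3-1 (15 aa), UPEC mouse 1, 3 sequences: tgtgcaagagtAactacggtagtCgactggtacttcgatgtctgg
Ighv3-1 (15 aa), PBS mouse 1: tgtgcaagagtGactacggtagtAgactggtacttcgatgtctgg
Ighv3-1/Ighj1 (12 aa), UPEC mouse 3: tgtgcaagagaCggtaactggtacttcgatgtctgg
Ighv3-1/Ighj1 (12 aa), PBS mouse 1: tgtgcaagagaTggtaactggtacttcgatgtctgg
Ighv13-2 (9 aa), UPEC mouse 5: tgtagtagaAGtggGtttgcttactgg
Ighv13-2 (9 aa), UPEC mouse 2: tgtagtagaTCtggCtttgcttactgg

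Sharing was mostly between a pair of mice. Of the 20 CDR3s, 18 occurred in 2 mice, 1 in 3 and 1 in 4, and 8 were shared between PBS and UPEC mice, 6 among PBS mice only and 6 among UPEC mice only. PBS mouse 4 held 8 of them and UPEC mouse 3 held 7, whereas UPEC mouse 2 held 1. The number of nucleotide forms was 1 for 9 CDR3s, 2 for 9 and 3 for 2, which made 33 forms in all. In 10 CDR3s an identical nucleotide form was present in at least 2 mice, and in the other 10 no form was shared between mice. Among the 11 CDR3s with more than 1 form, 17 nucleotide positions differed, of which 14 were the third position of a codon.

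**Figure D1:**
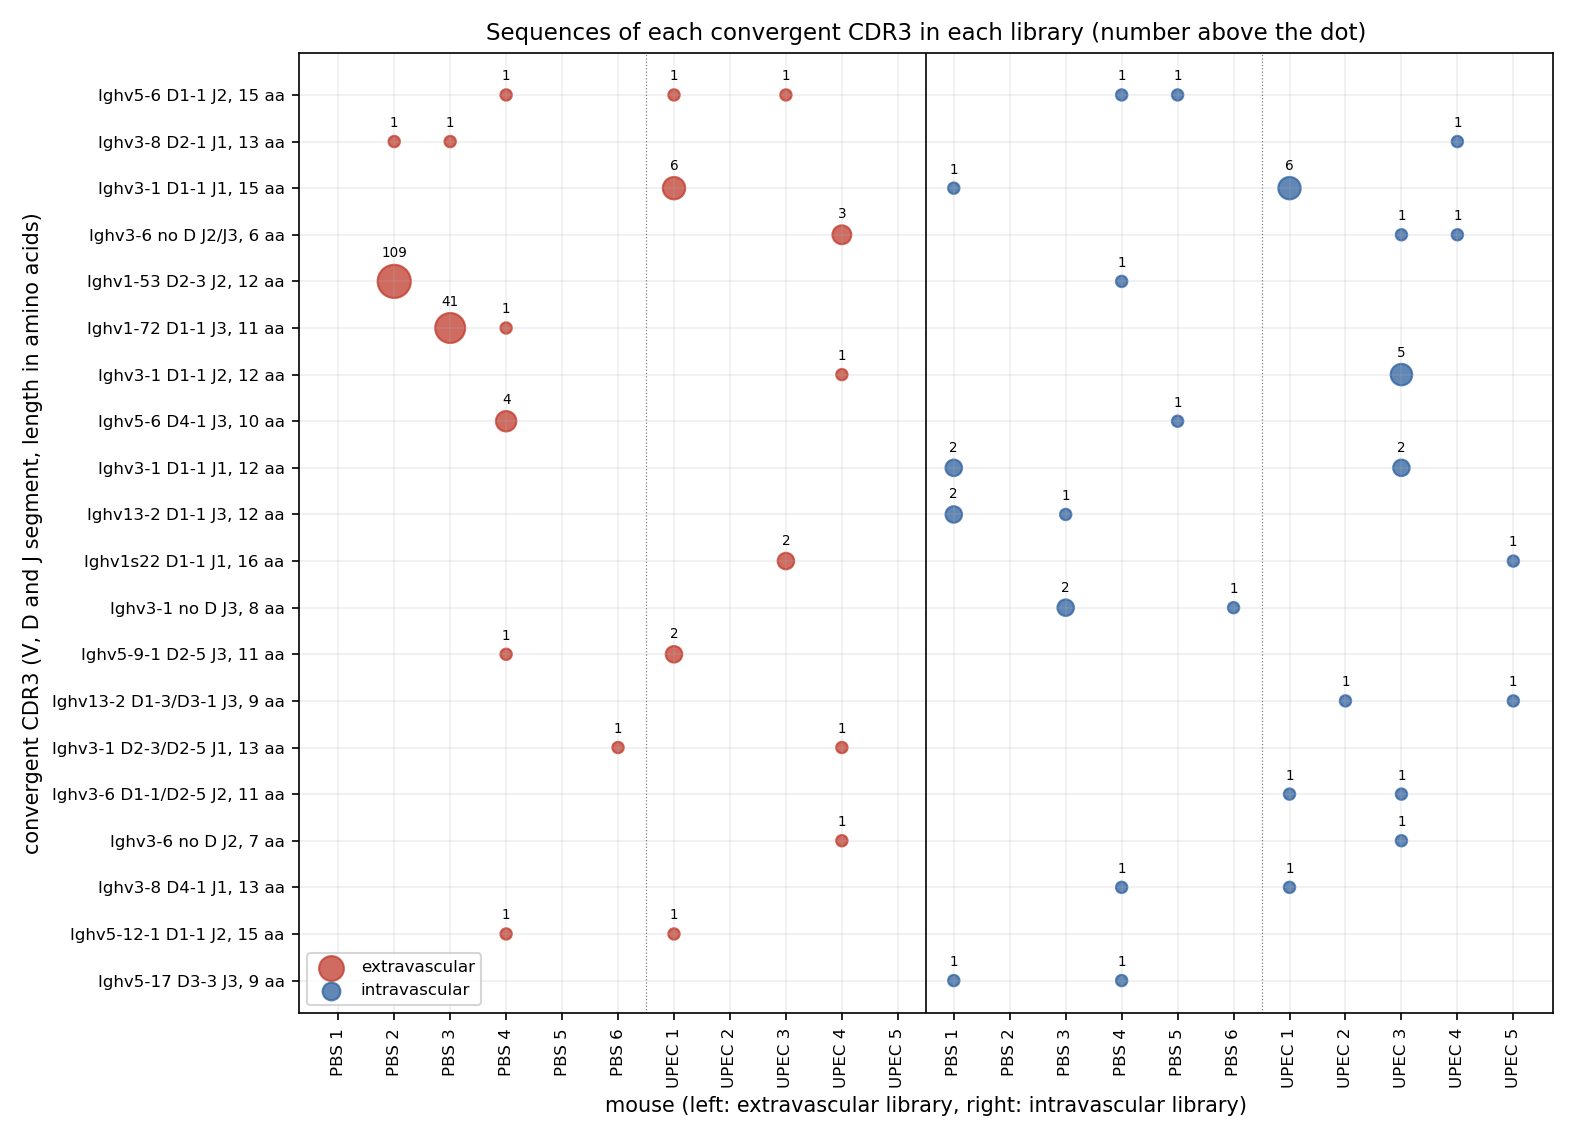
Number of sequences (above each dot; dot area grows with its logarithm) of each convergent CDR3 (rows, named by V, D and J segment and length in amino acids, aa) in each of the 22 libraries (columns, extravascular left and intravascular right). The dots of 109 and 41 sequences are in the extravascular libraries of PBS mice 2 and 3, and most other dots stand for 1 sequence.

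The abundance of the convergent sequences lay in 2 CDR3s, each expanded in 1 mouse. Ighv1-53 (12 aa) accounted for 110 of the 219 sequences and Ighv1-72 (11 aa) for 42, together 69.4%. The third, Ighv3-1 (15 aa), had 13. In 19 of the 20 CDR3s the mouse with the second most sequences had a single one, and in 12 a mouse contributed no more than 1 sequence of the minimum of 2 reads. With sequences of at least 3 reads, 9 CDR3s met the definition. The 7 CDR3s that had 1 sequence in each of 2 mice were the closest to missing the definition. Just outside it were 35 CDR3 amino acid sequences that 2 or more mice carried only with different V segments, and 225 CDR3s, 3.85% of the 5850 found in 1 mouse, that were 1 amino acid away from a CDR3 of another mouse with the same V segment.

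Ighv1-53 (12 aa) was found 109 times among the extravascular sequences of PBS mouse 2 and 1 time among the intravascular sequences of PBS mouse 4. It made up 9.31% of the sequences of the former library outside Ighv11-2 and Ighv12-3. The constant region was the feature that set it apart. Igha encodes the constant region of IgA, the class typical of mucosal secretions, and Ighm that of IgM, with which every B cell starts. In PBS mouse 2, 103 of the 109 sequences had Igha reads, 8 had reads of the field read as Ighg2a, 3 of them beside Igha, and 1 had Ighm reads. The single sequence of PBS mouse 4 also had Igha reads. This CDR3 held 1437 Igha reads and 2 Ighm reads, and its most abundant sequence had 1051 reads. It was the only convergent CDR3 with Igha, it accounted for 92.0% of the Igha sequences of its library and for 34.3% of the 303 Igha sequences outside Ighv11-2 and Ighv12-3 in the whole series. The 109 sequences comprised 102 different V-D-J regions. Against the germline Ighv1-53 segment they had between 3 and 15 mismatches (median 5), and the sequence of PBS mouse 4 had 1. In PBS mouse 2 the sequence of 1051 reads had 4 mismatches over 266 nucleotides. The next had 52 and 46 reads, and each of the others had at most 9. Whether the sequences of few reads are separate variants in the cells was not tested. The closest pair of sequences from the 2 mice differed at 5 of 333 nucleotides.

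Ighv1-72 (11 aa) had 41 extravascular sequences from PBS mouse 3 (3.39% of that library) and 1 from PBS mouse 4. In contrast to the Ighv1-53 CDR3, all 42 sequences carried Ighm reads, 353 in all, and no reads of another class. Its V segment was close to germline, with between 0 and 2 mismatches (median 1) in PBS mouse 3 and 0 in PBS mouse 4. In PBS mouse 3 the sequence of 234 reads had 0 mismatches, and each of the others had at most 9 reads. A complete V-D-J region of 330 nucleotides was identical in the 2 mice, with up to 234 reads per sequence in PBS mouse 3 and 3 in PBS mouse 4. The forms are shown because the rarer one, 1 sequence of PBS mouse 3, differs at the single position in capitals.
Ighv1-72 (11 aa), PBS mice 3 and 4, 41 sequences: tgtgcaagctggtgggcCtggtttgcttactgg
Ighv1-72 (11 aa), PBS mouse 3, 1 sequence: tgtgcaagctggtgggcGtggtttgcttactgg

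Ighv3-1 (15 aa) was found in both compartments of the same mouse. UPEC mouse 1 had 6 sequences in each library, which made it the most numerous CDR3 outside Ighv11-2 and Ighv12-3 in both, at 2.80% of extravascular and 1.85% of intravascular sequences. PBS mouse 1 had 1 intravascular sequence of 15 reads. All 13 sequences had Ighm reads. The V segment had between 4 and 9 mismatches to germline in the extravascular and between 3 and 9 in the intravascular library of UPEC mouse 1 (median 7 in both), and 0 in PBS mouse 1. In the extravascular library of UPEC mouse 1, 5 of the 6 sequences could be placed against germline. The same CDR3 amino acids thus occurred on a V segment with mismatches to germline in 1 mouse and without any in the other. Whether the mismatches are mutations was not tested.

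The remaining CDR3s had between 2 and 6 sequences each. Ighv3-1/Ighj2 (12 aa) had 5 sequences in UPEC mouse 3 (intravascular) and 1 in UPEC mouse 4 (extravascular). Ighv5-6 (10 aa) had 4 in PBS mouse 4 (extravascular) and 1 in PBS mouse 5 (intravascular). Ighv3-1/Ighj1 (12 aa) had 2 intravascular sequences in each of PBS mouse 1 and UPEC mouse 3, with 66 reads in all. These 3 CDR3s had between 0 and 3 nucleotides between the segments.

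Ighv13-2 (12 aa) had 2 sequences in PBS mouse 1 and 1 in PBS mouse 3, all intravascular, with 6 to 8 nucleotides between the segments and 6 to 9 V mismatches. Ighv1s22 (16 aa), the longest, had 2 extravascular sequences in UPEC mouse 3 and 1 intravascular sequence in UPEC mouse 5. Ighv3-6 (6 aa), the shortest, and Ighv3-1 (8 aa) had no assigned D segment. Ighv3-6 (6 aa) occurred with Ighj2 in UPEC mouse 4 (3 extravascular and 1 intravascular sequence) and with Ighj3 in UPEC mouse 3 (1 sequence). Ighv3-1 (8 aa) had the same nucleotides in PBS mouse 3 (2 sequences) and PBS mouse 6 (1 sequence). These CDR3s are shown as the extremes of length and of insertion, with capitals where forms differ.
Ighv13-2 (12 aa), PBS mouse 1: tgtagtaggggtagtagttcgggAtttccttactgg
Ighv13-2 (12 aa), PBS mouse 3: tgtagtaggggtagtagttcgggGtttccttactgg
Ighv1s22 (16 aa), UPEC mouse 3: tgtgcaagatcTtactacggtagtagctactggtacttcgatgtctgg
Ighv1s22 (16 aa), UPEC mouse 5: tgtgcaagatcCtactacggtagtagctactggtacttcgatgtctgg
Ighv3-6 (6 aa), UPEC mouse 4: tgtgcaagagaCtactgg
Ighv3-6 (6 aa), UPEC mouse 3: tgtgcaagagaTtactgg
Ighv3-1 (8 aa), PBS mice 3 and 6: tgtgcaagagggtttgcttactgg

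Over all the convergent CDR3s with a germline reference, 46 of the 99 sequences outside the Ighv1-53 CDR3 had no V mismatch. In 8 CDR3s a whole V-D-J region was identical in at least 2 mice. That made 8 of the 12813 V-D-J regions outside Ighv11-2 and Ighv12-3. An identical region has the same V segment and CDR3, so under the definition it can occur among convergent CDR3s only. In the whole series, which includes these regions, 169 of 16127 were found in at least 2 mice. In 7 of the 8 the V segment had 0 mismatches to germline, and the other was Ighv3-8/Ighd2-1 (13 aa). The region of Ighv5-6 (15 aa), 342 nucleotides long, was identical in all 5 libraries that held it, with 2 to 5 reads in each. Its CDR3 nucleotides were also listed with Ighv5-12-1 in 2 sequences of PBS mouse 4 and UPEC mouse 1, a separate member under the definition. All 7 of these sequences had more than 1 V name in the annotation, so both may be a single member, and the convergent CDR3s numbered 16 when sequences with an ambiguous V name were left out.

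Another 2 members shared their CDR3 with Ighv11-2. Ighv3-8/Ighd2-1 (13 aa) was listed in 3 sequences of 2 reads, from PBS mice 2 and 3 (extravascular) and UPEC mouse 4 (intravascular), and Ighv3-1 (13 aa) in 1 sequence each of PBS mouse 6 and UPEC mouse 4 (both extravascular). Joined to Ighv11-2, the CDR3 amino acids of the former had 179 sequences in 19 libraries and the latter 205 in 21, in all 11 mice in each case. The same library always held Ighv11-2 sequences with identical CDR3 nucleotides, between 3 and 41 of them. The annotation gave the capitals of the first sequence as an insertion next to the Ighv3-8 segment, and the capitals of the others mark the position that differs.
Ighv3-8/Ighd2-1 (13 aa): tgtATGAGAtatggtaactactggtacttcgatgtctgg
Ighv3-1 (13 aa), UPEC mouse 4: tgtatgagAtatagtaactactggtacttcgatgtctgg
Ighv3-1 (13 aa), PBS mouse 6: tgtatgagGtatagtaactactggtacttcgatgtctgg
In the nucleotides just before the CDR3, all 5 sequences matched their own V segment exactly for 1 nucleotide and Ighv11-2 for 21 (3 sequences) or 48 (2 sequences). For other sequences with Ighv3-8 and Ighv3-1 the median exact match was 128 and 119 nucleotides with their own segment and 1 nucleotide with Ighv11-2, and none of 3658 and 3432 reached 21 with Ighv11-2. The 2 Ighv3-8 sequences with the longer match had an identical V-D-J region in PBS mouse 2 and UPEC mouse 4. Their V segment had 12 mismatches to Ighv3-8 over 263 nucleotides, and its last 30 nucleotides had 7 mismatches to Ighv3-8 and 0 to Ighv11-2. The other 3 sequences had 2 mismatches to their own segment over 263 or 266 nucleotides, and over the last 30 nucleotides 2 to their own segment and 5 to Ighv11-2. Without both CDR3s, 18 convergent CDR3s of 5868 and 214 sequences were left, of which 6 CDR3s were shared between PBS and UPEC mice. The counts of V, D and J segment use, length and compartment below are also given for these 18 where they differ. Those of isotypes, of CDR3s with an assigned D segment and of pairs of mice are for all 20 only.

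The convergent CDR3s used 11 of the 78 V segments. Ighv3-1 (GRCm38.p6 chr12:113964390-113964683) had 5, Ighv3-6 (chr12:114288152-114288447) had 3, and Ighv5-6 (chr12:113625508-113625801), Ighv13-2 and Ighv3-8 had 2 each. There was 1 each for Ighv1-53 (chr12:115158445-115158835), Ighv1-72 (chr12:115757984-115758277), Ighv1s22, Ighv5-9-1, Ighv5-12-1 and Ighv5-17. Coordinates are those of the segments of the same name in RefSeq. Ighv3-1, Ighv3-6 and Ighv3-8 were also the most used V segments, with 13.6%, 13.6% and 15.6% of all distinct CDR3s. The Ighv3 family thus held 10 of the 20 convergent CDR3s and 47.2% of all CDR3s, and the Ighv5 family 5 of 20 and 14.1%. The Ighv1 family held 3 of 20 and 27.7% of all CDR3s. Without the 2 CDR3s also seen with Ighv11-2, Ighv3-1 had 4, Ighv3-8 had 1 and the Ighv3 family 8 of 18. The share of CDR3s that were convergent was 0.624% for Ighv3-1, 0.218% for Ighv3-8, 1.12% for Ighv5-6 and 1.14% for Ighv13-2, each of which rests on at most 5 CDR3s. All sequences of both Ighv5-6 CDR3s, of Ighv5-9-1 (11 aa) and of Ighv5-12-1 (15 aa) had more than 1 V name, so 4 of the 5 Ighv5 members and the value for Ighv5-6 rest on the first name listed.

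**Figure D2:**
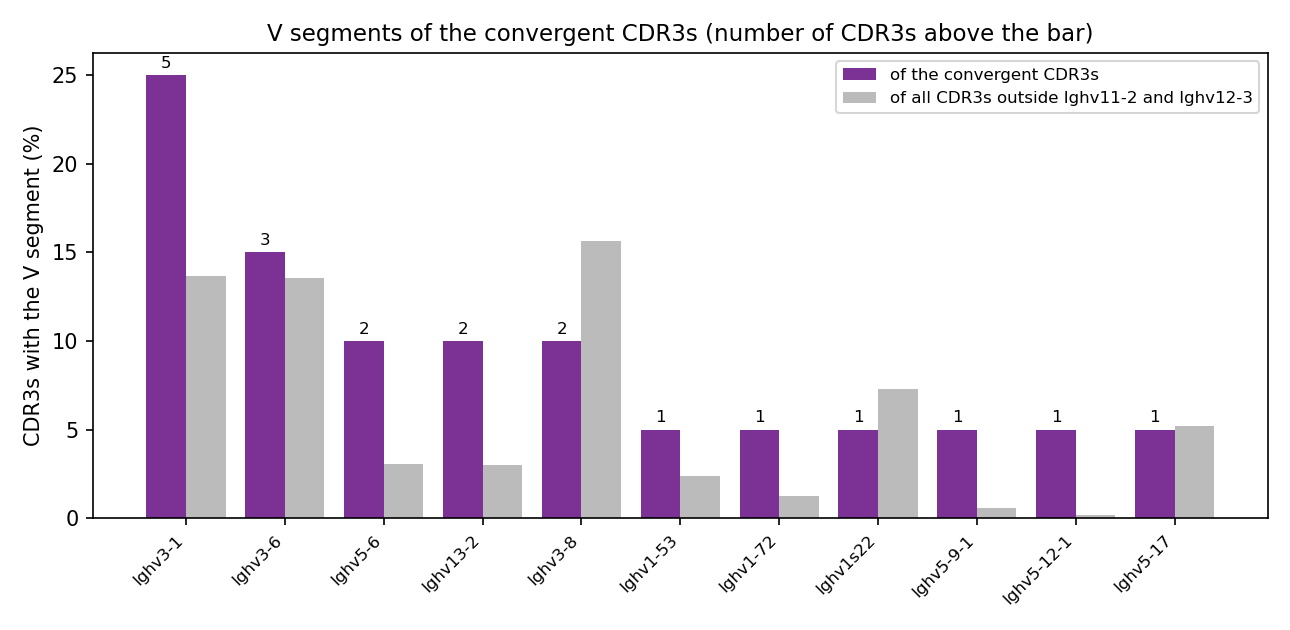
Percent of the 20 convergent CDR3s (purple, with the number above) and of all 5870 CDR3s outside Ighv11-2 and Ighv12-3 (grey) that used each of the 11 V segments. Ighv3-1 made up 25.0% of the convergent and 13.6% of all CDR3s, and Ighv3-8 10.0% and 15.6%.

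Convergent CDR3s were shorter than the rest, with a median of 12 amino acids (range 6 to 16) against 14 (4 to 23) in the other 5850. At most 12 amino acids were found in 13 of 20, or 65.0%, against 26.9% of the others. Without the 2 CDR3s also seen with Ighv11-2 the median was 11.5, and 13 of 18, or 72.2%, had at most 12. Short CDR3s leave fewer positions that can differ, and length is part of what the definition compares.

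The nucleotides inserted at the 2 joints, V to D and D to J, lie inside the CDR3 and help to set the amino acids that the definition compares, so they are given as a description without a test. They were counted within mice over clonotypes, that is, combinations of CDR3 nucleotides, V and J segment with each counted once per mouse. A D segment was assigned in 17 of the 20 convergent CDR3s, and 6 of these 17 had no inserted nucleotide in any form. The mean per mouse ranged from 0 to 5 nucleotides in convergent clonotypes (median 1.29) and from 5.81 to 6.99 in other clonotypes (median 6.59). The 2 ranges did not overlap, and convergent clonotypes had fewer inserted nucleotides in 11 of 11 mice. The mean difference was -4.55 ± 1.73 nucleotides (SD, n = 11). Each convergent CDR3 enters in 2 or more mice, so the mice are not fully independent here. Among other clonotypes of the same CDR3 lengths the difference was smaller, at -2.60. It was -4.76 without the CDR3s also seen with Ighv11-2. The highest convergent mean, 5 in UPEC mouse 4, included the annotated insertion of 6 nucleotides in both of these CDR3s.

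Clonotypes without any inserted nucleotide made up 39.4% of convergent and 4.01% of other clonotypes on average, but the share was 0% in 4 mice and 100% in 2. The difference was 35.3 ± 36.6 percentage points (SD, n = 11), positive in 7 mice.

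**Figure D3:**
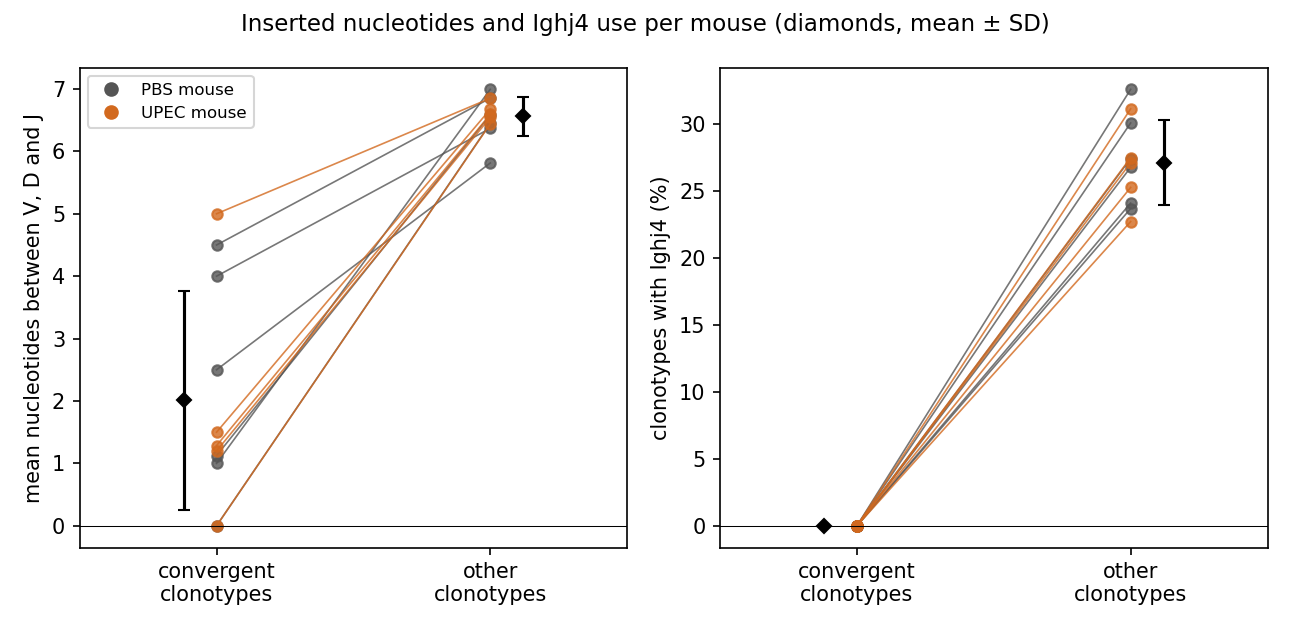
Mean number of nucleotides between V, D and J per clonotype (left) and percent of clonotypes with Ighj4 (right) in convergent and other clonotypes of each mouse (lines; grey PBS, orange UPEC; diamonds, mean ± SD, n = 11). Every line rises, from at most 5 nucleotides to at least 5.81 on the left and from 0% to at least 22.7% on the right.

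No convergent CDR3 used Ighj4, the J segment nearest to the constant regions (chr12:113428514-113428567). The J segment supplies the end of the CDR3, which the definition compares, and the same CDR3 enters in each mouse that carries it, so J segments too are given without a test. Ighj1 was used by 6 convergent CDR3s, Ighj2 by 7 and Ighj3 by 8, with Ighv3-6 (6 aa) counted under both Ighj2 and Ighj3. Ighj1 was used by 4 without the CDR3s also seen with Ighv11-2. Among other clonotypes Ighj4 made up between 22.7% and 32.6% per mouse. The mean difference was -27.1 ± 3.15 percentage points (SD, n = 11), and -20.8 among clonotypes of the same CDR3 lengths. As the convergent share was 0% in every mouse, this SD is the spread of the other clonotypes only. Ighj3 made up 41.7% of convergent and 20.1% of other clonotypes on average over mice, Ighj1 29.8% and 19.6% and Ighj2 28.6% and 33.2%. Without the CDR3s also seen with Ighv11-2 the difference for Ighj1 turned from 10.2 to -2.90 points and that for Ighj2 from -4.64 to 2.05. Among clonotypes of the same CDR3 lengths the differences were 17.5 points for Ighj1, -12.1 for Ighj2 and 15.4 for Ighj3. The Ighj3 difference of 21.6 points was 10.3 without PBS mouse 3, 11.3 without PBS mouse 4, 10.48 without UPEC mouse 2 and 14.3 without UPEC mouse 5.

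The D segment was assigned as Ighd1-1 in 15 of the 33 convergent clonotypes, which is also the most used segment of all, at 34.2% of all clonotypes. Ighd2-3 followed with 4, then Ighd2-5 and Ighd4-1 with 3 each. The share for Ighd2-3 was 9.13% of all clonotypes, for Ighd4-1 8.63% and for Ighd2-5 6.17%. No D segment was assigned in 4 convergent clonotypes, and in 2.79% of all clonotypes. Without the CDR3s also seen with Ighv11-2 there were 30 clonotypes, of which Ighd2-3 had 3 and Ighd2-5 had 2.

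Switched isotypes, Igha and the field read as Ighg2a, were found only in the Ighv1-53 CDR3, and in 1.51% and 0.303% of the other sequences outside Ighv11-2 and Ighv12-3, so that their absence from the 109 sequences of the other 19 CDR3s is near the background. Ighm reads were present in 105 of these 109 sequences, or 96.3%. All 20 CDR3s had at least 1 sequence with Ighm reads. Ighd reads were present in 4 of the 219 sequences, or 1.83%, against 10.2% of other sequences. The Ighv1-53 CDR3, with 50.2% of the 219, had 0 of them, so all 4 were among the 109 sequences of the other 19 CDR3s. The 4 sequences came from 4 CDR3s, 1 each of Ighv3-1/Ighj2 (12 aa), Ighv3-1 (8 aa), Ighv3-6 (6 aa) and Ighv13-2 (9 aa). The names of all isotypes but Igha rest on the order of the fields, which was inferred. Per mouse, the percent of sequences with Ighm reads ranged from 1.82 to 100 in convergent sequences (median 100) and from 71.2 to 93.4 in others (median 87.6), and the lowest value was that of PBS mouse 2. The mean difference was -1.50 ± 30.8 percentage points (SD, n = 11), positive in 8 of the mice (exact signed-rank test, p = 0.32), and +7.89 without PBS mouse 2. With convergence defined by CDR3 nucleotides, V and J segment, it was +11.6 points over 9 mice (exact signed-rank test, p = 0.00781), the opposite direction. That definition leaves out the Ighv1-53 CDR3, which had no nucleotide form in common between its mice. For Ighd the convergent share was 0% in 8 mice and 50% in UPEC mouse 5, which had 2 convergent sequences. Among the mice with 0%, UPEC mouse 2 had 1 convergent sequence, PBS mice 5 and 6 had 2 each and PBS mouse 1 had 6. In PBS mouse 2, 109 of 110 were of the Ighv1-53 CDR3. With so few sequences, 0% is likely even at the 10.2% of other sequences. The tests for Ighd therefore cannot decide on a difference. The mean difference was -5.40 ± 16.3 points (SD, n = 11; exact signed-rank test, p = 0.083). It was -9.83 points without UPEC mouse 2 (exact signed-rank test, p = 0.00586) and -9.31 without UPEC mouse 5 (exact signed-rank test, p = 0.0273), so single mice decided whether the threshold was passed. Because each convergent CDR3 enters in 2 or more mice, the mice are not fully independent in the tests of Ighm and Ighd either.

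Across compartments, 180 convergent sequences of 13 CDR3s were extravascular and 39 of 16 CDR3s were intravascular. Most of the 180 came from the 2 large CDR3s, 109 from Ighv1-53 (12 aa) and 42 from Ighv1-72 (11 aa). These had 1 and 0 of the 39 intravascular sequences. There were 9 CDR3s in both compartments, 4 in extravascular libraries only and 7 in intravascular libraries only. Without the CDR3s also seen with Ighv11-2, 176 sequences of 11 CDR3s were extravascular and 38 of 15 CDR3s intravascular, with 8 CDR3s in both compartments and 3 in extravascular libraries only. Within the same mouse, 3 CDR3s were in both libraries. These were Ighv3-1 (15 aa) in UPEC mouse 1, Ighv3-6 (6 aa) in UPEC mouse 4 and Ighv5-6 (15 aa) in PBS mouse 4. Among the CDR3s found in 1 mouse, 31 of 5850 were in both of its libraries.

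As a percent of the sequences outside Ighv11-2 and Ighv12-3, convergent sequences made up 0%, 9.39%, 3.47%, 1.42%, 0% and 0.0898% of the extravascular libraries of PBS mice 1 to 6 and 1.10%, 0%, 0.640%, 0.909%, 0.606% and 0.167% of their intravascular libraries. PBS mouse 2 had the highest extravascular and the lowest intravascular share. In UPEC mice 1 to 5 the extravascular shares were 4.67%, 0%, 0.524%, 0.917% and 0% and the intravascular shares 2.47%, 0.305%, 1.80%, 0.268% and 0.588%. The groups overlapped throughout, and 5 of the 22 libraries held no convergent sequence. With 1173 sequences in the extravascular library of PBS mouse 1, a count of 0 allows up to 0.256%, taking 3 counts of the total as the limit, and with 437 in that of UPEC mouse 2 up to 0.686%. The 95% Wilson interval was 7.85 to 11.2% for the extravascular share of PBS mouse 2 and 2.56 to 8.39% for that of UPEC mouse 1. Intervals and limits cover counting error only.

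**Figure D4:**
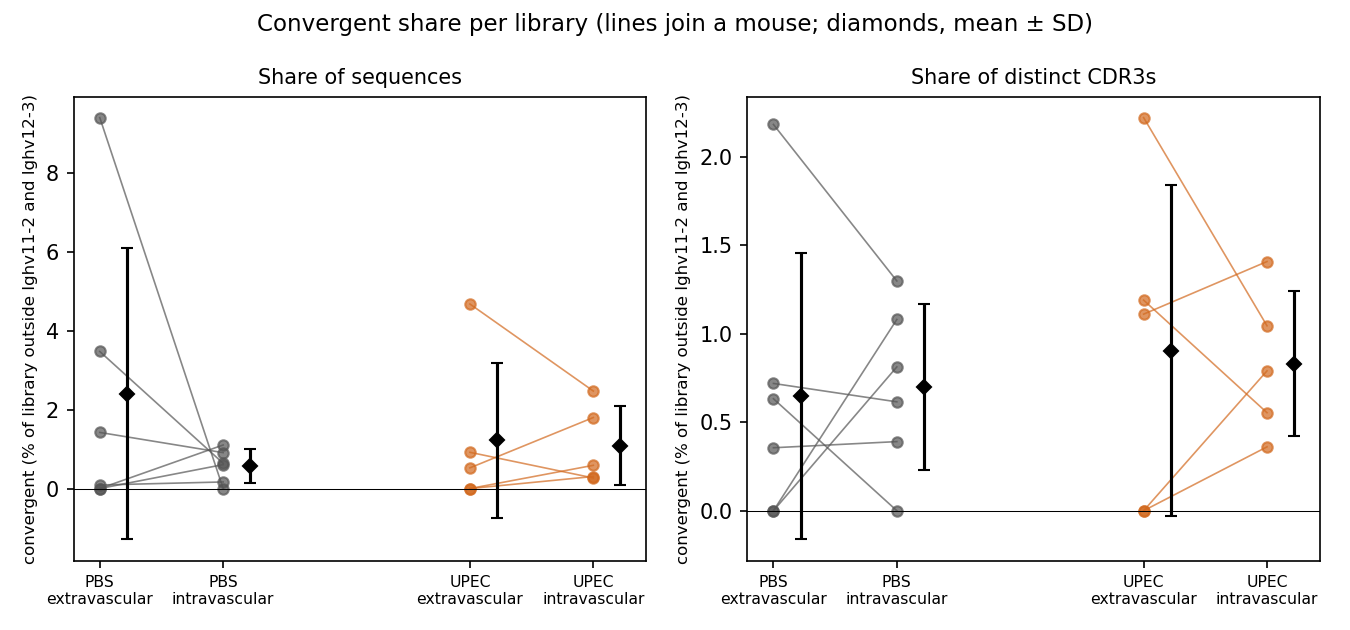
Percent of the sequences (left) and of the distinct CDR3s (right) outside Ighv11-2 and Ighv12-3 that were convergent in each library (points; lines join the libraries of a mouse; diamonds, mean ± SD, n = 6 PBS and 5 UPEC mice). The libraries of PBS and UPEC mice overlap in both compartments, and the 2 highest points on the left, 9.39% and 4.67%, are the extravascular libraries of PBS mouse 2 and UPEC mouse 1.

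The extravascular share exceeded the intravascular share in 5 of 11 mice. The mean was 1.86% against 0.805%, a difference of 1.06 ± 3.05 percentage points (SD, n = 11; exact signed-rank test, p = 0.638), and it was -0.22 without PBS mouse 4, whose sequences make members of both large CDR3s. With intravascular libraries of the other mice only to set membership, it was 0.74. The definition bears on these shares, because 4 CDR3s met it through extravascular libraries only and 7 through intravascular libraries only. The tests therefore cannot decide on a difference between compartments. The difference was 1.83 ± 3.95 in the PBS mice (SD, n = 6; exact signed-rank test, p = 0.688) and 0.14 ± 1.35 in the UPEC mice (SD, n = 5; exact signed-rank test, p = 1, where 5 pairs cannot pass the threshold). With 1 mouse left out, they kept their sign in 10 and 9 of 11 runs. In the PBS mice the difference was 0.36 without PBS mouse 2 and -0.35 without PBS mouse 4. In the UPEC mice it was -0.33 without UPEC mouse 1. The change of the difference with UPEC was -1.69 points (exact permutation test, p = 0.485). This change kept its sign in 10 of 11 runs with 1 mouse left out and was 0.27 without PBS mouse 4. With CDR3s of the other treatment group it was 0.56. When each CDR3 counted once per library, the mean share was 0.765% for extravascular and 0.760% for intravascular sequences (two-sided exact signed-rank test, p = 1).

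The definition also bears on the shares by treatment. Of the 20 CDR3s, 6 met it through PBS mice only, among them both large ones, and 6 through UPEC mice only. The tests below therefore cannot decide on a difference between treatments. Between treatments, the extravascular share of sequences was 1.22% ± 1.97 in UPEC mice (SD, n = 5) and 2.40% ± 3.68 in PBS mice (SD, n = 6; exact Mann-Whitney U test, p = 0.762), and the 2 highest PBS values were those of PBS mice 2 and 3. The difference between UPEC and PBS mice was -1.17 points, and it kept its sign in 9 of 11 runs with 1 mouse left out. It was +0.23 without PBS mouse 2 and +0.89 without PBS mouse 4. With at least 3 reads it was +0.59, and with CDR3s of the other treatment group +0.87. The intravascular share was 1.09% ± 0.994 and 0.571% ± 0.423 (same n; exact Mann-Whitney U test, p = 0.662), and the difference of 0.51 points was 0.27 without PBS mouse 1, 0.19 without UPEC mouse 1 and 0.21 without UPEC mouse 3. The shares of distinct CDR3s were 0.905% and 0.649% in the extravascular libraries of UPEC and PBS mice (exact Mann-Whitney U test, p = 0.628) and 0.832% and 0.700% in the intravascular libraries (exact Mann-Whitney U test, p = 0.931). A p above the threshold does not show that the groups are alike, and with 6 and 5 mice the spread within a group was as large as most of these differences.

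Shared CDR3s were also counted over pairs, with a CDR3 counted once for every pair of mice or libraries that shared it. The sum was 8 over 15 PBS pairs, 7 over 10 UPEC pairs and 12 over 30 pairs of PBS with UPEC mice. Relative to the number of CDR3 pairs compared, this was 1.78, 2.60 and 1.40 shared CDR3s per 1000000 pairs. Between libraries of different mice it was 2.68 for extravascular with extravascular, 1.96 for intravascular with intravascular and 1.78 for extravascular with intravascular libraries. These rest on sums of 8, 10 and 14 over pairs of libraries, which are not numbers of distinct CDR3s. Both CDR3s also seen with Ighv11-2 are among the 8 of extravascular libraries and among the 12 of PBS with UPEC mice. Ighv3-8/Ighd2-1 (13 aa) is also among the 14 and among the 8 of PBS mice. The rates are given with them only, so they do not rank the kinds of pairs. The 2 libraries of the same mouse shared 43.2 per 1000000 pairs.

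Convergent clonotypes had 5.34 sequences each on average over mice, and other clonotypes 2.17. The higher mean came from PBS mouse 2, with 36.7 sequences per convergent clonotype. The difference of 3.16 ± 10.6 (SD, n = 11) was positive in 3 of the mice (exact signed-rank test, p = 0.7) and -0.73 without PBS mouse 4. The share of sequences with the minimum of 2 reads was 54.8% in convergent and 52.7% in other sequences, with a median of 2 reads in both.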

How the data were processed

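The authors deposited, for each of 22 Igh libraries of sorted kidney B cells, an IMGT/V-QUEST table with a line per retained sequence, after quality filtering, read merging, barcode consensus and removal of sequences with 1 read. The deposited values are names, sequences and positions without normalization, and the only counts used are the reads in the sequence identifiers. Each identifier holds 9 read counts per isotype whose names are cut off after Igha, so the others were assigned in alphabetical order, which could not be checked. The members and lists were chosen with earlier results of these data known.

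The first V name was used without its allele, and junctions were translated with biopython 1.88 in Python 3.11.15, with scipy 1.17.1, pandas 2.3.3 and numpy 2.4.6 for the rest. Both libraries of a mouse come from the same animal, so compartments, and isotypes and clonotype sizes of convergent against other sequences, were compared by exact two-sided signed-rank tests within mice. Treatments were compared by exact two-sided Mann-Whitney tests over 462 assignments of mice. Tests were held to a threshold of 0.05. Since each convergent CDR3 enters in 2 or more mice, the mice are not fully independent in any of them. Inserted nucleotides and J segments are given without a test, because the definition compares the CDR3 that they encode. The tests were tested on simulated data. V mismatches were counted against GENCODE vM21 (GRCm38) by gapless placement over at least 100 nucleotides, and strain differences would count as mismatches. RefSeq coordinates were matched by name, since the tables give no build. CDR3s named were the 12 in most mice, the 6 with most sequences and the 4 with most forms. Ighv5-9-1 (11 aa), Ighv13-2 (9 aa), Ighv5-12-1 (15 aa) and Ighv3-1 (13 aa) were added after their values were seen.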

Additional observations from a re-analysis of the deposited data

Results flagged for a closer look

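In 6 of 26 groups of mice tested, 1 value lay far from the others of its group, where about 1.3 would be found by chance in independent groups. The groups share mice and CDR3s, so an excess over chance was not tested. The extravascular library of PBS mouse 2 held 9.39% convergent sequences, apart from the other PBS extravascular libraries, through its Ighv1-53 CDR3. The same mouse stood apart in the sequences per convergent clonotype, 34.4 above its other clonotypes, and in the percent of convergent sequences with Ighm reads, -87.0 points relative to its other sequences. The extravascular library of PBS mouse 4 stood apart in the percent of distinct CDR3s that were convergent, 2.18%. The extravascular library of UPEC mouse 1, the shallowest of all, held 4.67% convergent sequences. UPEC mouse 4 had the smallest difference in inserted nucleotides among UPEC mice, -1.85, with 2 of its convergent CDR3s being those also seen with Ighv11-2.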

How the results depend on the processing

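The lower number of inserted nucleotides and the absence of Ighj4, which the definition bears on and which were not tested, kept their direction in every alternative run, which were clonotype identity by nucleotides, at least 3 reads, different nucleotides in 2 mice, no pairing, weighting to CDR3 length, a single V name, CDR3s also seen with Ighv11-2 or Ighv12-3 left out, palindromic nucleotides left out (inserted nucleotides only) and each mouse left out. The single V name, the omission of CDR3s also seen with Ighv11-2 or Ighv12-3 and that of palindromic nucleotides were chosen after seeing the data. Inserted nucleotides differed by between -4.97 and -4.00 and Ighj4 by between -27.6 and -26.6 points with 1 mouse left out. The cause of the changes below was not tested.

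For clonotypes without inserted nucleotides, also not tested, the difference was 43.4 points with nucleotide identity, 31.6 at 3 reads, 20.2 with different nucleotides, 23.6 with a single V name and 35.3 without the replicate block, and ranged from 24.2 to 44.8 with 1 mouse left out. For Ighd the difference was past the threshold with nucleotide identity (-9.58), in extravascular libraries only (-12.0) and without the replicate block (-5.40; exact Mann-Whitney test, p = 0.00655), and also without UPEC mouse 2 (-9.83; p = 0.00586, exact signed-rank test) or UPEC mouse 5 (-9.31; p = 0.0273, exact signed-rank test), with a range of -9.83 to -1.43. The few convergent sequences per mouse limit all of these values for Ighd. Among the differences given with a test, no other call changed without the block. For Ighm the difference turned positive and passed the threshold with nucleotide identity (11.6; exact signed-rank test, p = 0.00781, n = 9), and turned positive with at least 3 reads (6.68), extravascular (0.012) and intravascular libraries only (3.76), with a range of -6.36 to 7.89. Ighj1 ranged from 4.93 to 21.998 and Ighj3 from 10.3 to 31.7 points with 1 mouse left out. Ighj1 turned negative with nucleotide identity (-0.71) and without the CDR3s also seen with Ighv11-2 (-2.90). Ighj2 turned positive with nucleotide identity (1.27), at least 3 reads (7.6) and without those CDR3s (2.05), with a range of -14.6 to 2.03. Sequences per clonotype ranged from -0.73 to 4.06.

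The shares by compartment and treatment often changed direction and passed the threshold in none of the alternatives. The extravascular minus intravascular share ranged from -0.22 to 1.33 in all mice, -0.35 to 2.50 in PBS and -0.33 to 0.48 in UPEC mice with 1 mouse left out. It was -0.086 in PBS mice with CDR3s of the other treatment group, and in UPEC mice -0.090 with different nucleotides, -0.18 by reads and -0.25 with a single V name. The share of CDR3s ranged from -0.16 to 0.18, and was -0.25 with different nucleotides, -0.063 over all sequences, -0.13 with intravascular libraries of other mice, -0.27 with a single V name and -0.090 without the CDR3s also seen with Ighv11-2. For UPEC minus PBS, the extravascular share of sequences ranged from -2.21 to 0.89, and was 0.59 at 3 reads and 0.87 with CDR3s of the other group. The intravascular share ranged from 0.19 to 0.64, and was -0.064 with nucleotide identity. The change of the compartment difference ranged from -2.48 to 0.27 and was 0.56 with CDR3s of the other group. The extravascular share of CDR3s ranged from -0.019 to 0.48, and the intravascular from -0.22 to 0.32, -0.24 with nucleotide identity and -0.015 with CDR3s of the other group.

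The number of convergent CDR3s moved more than 1.5 times with nucleotide identity (10), at least 3 reads (9), different nucleotides (10), CDR3s of the other treatment group (8) and without PBS mouse 4 (13). The number of sequences moved to 72 with nucleotide identity, 42 at 3 reads, 34 with CDR3s of the other treatment group, 51 without PBS mouse 4 and 108 without PBS mouse 2.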
